A study of Homo sapiens with 79 samples.

Results

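The photoreceptor fate regulators are 8 genes for nuclear proteins that act as a photoreceptor is specified, CRX, NRL, NR2E3, OTX2, PRDM1, RAX2, NEUROD1 and SAMD7. They were taken by name, and all 8 were among the 24414 genes of the table. The table holds 1976 single cells from retinal organoids, which are retinal tissue grown in culture from pluripotent cells. The organoids came from H9 human embryonic stem cells carrying a CRX-GFP reporter, whose manner of insertion is not given in the sources used here. All groups alike received Y27632 at the start of differentiation, and later foetal calf serum, T3, taurine and retinoic acid. Day 60 and day 90 were measured on 1 Fluidigm C1 chip each, with 578 and 661 cells, and day 200 on chips a and b, with 356 and 381 cells. No group differed from another in genotype or treatment, and the groups differ in day and chip.

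In the retina, OTX2 is the homeodomain factor that opens photoreceptor and bipolar fate, and it directs the pigment epithelium as well. CRX is its close relative, which acts in cones and rods after their last division. PRDM1 holds precursors back from bipolar fate, and NEUROD1 is a basic helix-loop-helix factor of cone and rod differentiation. RAX2 is a homeobox gene of photoreceptors. NRL, a leucine zipper factor, turns a precursor into a rod, and its target NR2E3 is a nuclear receptor that represses cone genes there. SAMD7 is a chromatin protein that silences non-rod genes in rods.

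The chips had 19 columns at day 60 and 20 columns on each other chip, and each of the 40 row barcodes occurred in 35 to 59 columns, so that a cell is named by its column and its row together. No 2 cells shared both. Column totals ran from 3414268 to 7999822 reads, and the median cell of a chip had between 160343 and 251929 reads. The columns of a chip are not stated to be separate cultures, and time and chip cannot be told apart at day 60 and day 90. No test across time points was made, and the chip levels below are sums over the cells of a chip. Column ranges beside them give the lowest, median and highest column and are not intervals of counting error. The reads carry no molecular identifiers. Levels are CPM, the reads of a gene scaled to a fixed library total, without the GFP-Spike row. In such sums fewer cells of a type and less RNA per cell cannot be told apart.

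The promoters are shown because 2 of the regulators share in them the sequence that CRX and OTX2 bind best, TAATCC. The window runs from 250 bases before a RefSeq start to 50 bases after it, in GRCh38.p14. RefSeq gave 10 such windows for 7 of the 8 regulators, and RAX2 had none. TAATCC, read on both strands as TAATCC or GGATTA, was found in 2 of the 10 windows, those of CRX and SAMD7. It is in 6.36% of the 35114 promoters of the table, and 2 or more copies are in 0.410%. The window of CRX, chr19:47821687-47821986 on the plus strand, holds 2 copies, which begin 164 and 85 bases before the start. The window of SAMD7, chr3:169911322-169911621 on the plus strand, holds 1, which begins 60 bases before the start. Capitals mark the motif.
CRX: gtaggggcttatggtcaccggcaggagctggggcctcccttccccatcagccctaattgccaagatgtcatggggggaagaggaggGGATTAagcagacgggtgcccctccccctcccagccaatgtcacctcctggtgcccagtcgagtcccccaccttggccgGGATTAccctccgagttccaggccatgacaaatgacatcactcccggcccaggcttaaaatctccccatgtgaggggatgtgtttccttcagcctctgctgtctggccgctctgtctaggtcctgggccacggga
SAMD7: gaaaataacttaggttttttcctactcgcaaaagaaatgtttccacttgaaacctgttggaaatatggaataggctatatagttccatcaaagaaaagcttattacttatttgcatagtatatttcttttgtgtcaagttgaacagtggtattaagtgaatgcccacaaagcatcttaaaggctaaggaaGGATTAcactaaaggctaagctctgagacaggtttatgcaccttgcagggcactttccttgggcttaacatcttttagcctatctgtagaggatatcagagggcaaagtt

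The other motifs searched on both strands were TGCTGA, a part of the NRL site, AAGTCA, a part of the NR2E3 site, and CAGATG, an E-box that NEUROD1 binds. TGCTGA was in 1 window of OTX2 and 1 of PRDM1, against 17.3% of all promoters. AAGTCA was in both windows of PRDM1, against 12.5%. CAGATG was in 1 window of NRL, against 14.7%. A match is a run of letters and not a bound site. In that PRDM1 window TGCTGA begins 23 bases before the start and AAGTCA 26 and 5 bases before it, so that the first 2 overlap.

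Most of the regulators were higher from day 90 on than at day 60, and NEUROD1 had chip levels from 167 to 220 CPM. At least 2-fold higher at day 90 than at day 60 on log2(CPM + 1) were 7 of the 8, all but NEUROD1, whereas 10.2% of the genes with at least 10 CPM were. None of the 8 was 2-fold lower, against 7.44% of the genes. On both day 200 chips 6 of the 8 were at least 2-fold higher than at day 60, all but CRX and NEUROD1, against 7.91%, and none was lower, against 3.76%. CRX had under 10 CPM on the chips of that comparison and stood outside its background. From day 90 to both day 200 chips only NR2E3 was 2-fold higher, against 2.77%, and none was 2-fold lower, against 1.83%. The median log2 difference of the 8 was 2.28 at day 90 against day 60, beside 0.01 over the genes. It was 2.86 for day 200 against day 60, beside 0.08, and 0.20 for day 200 against day 90, beside 0.06.

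**Figure D1:**
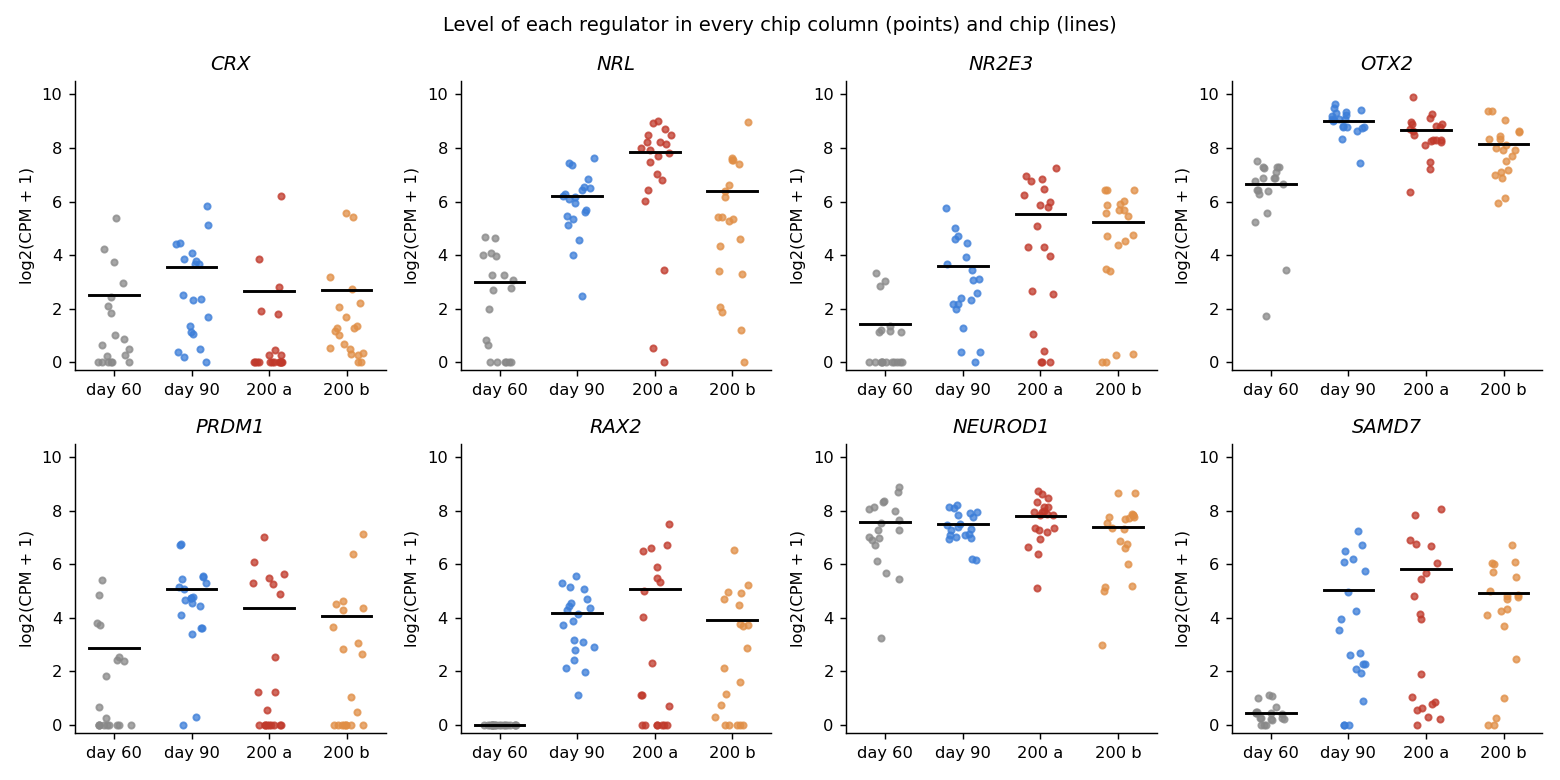
Level of each regulator as log2(CPM + 1) in every column of the 4 chips (points) and in the reads summed over each chip (black lines). RAX2 lay at 0 in 19 of 19 columns of day 60 and above 0 in all 20 of day 90, and the chip sums of NEUROD1 lay between 167 and 220 CPM.

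OTX2 (chr14:56799905-56816693, minus strand, in the GENCODE 44 annotation of GRCh38 used for all positions below) was the most abundant of the 8 per kilobase of exon, with 29.5 CPM per kb at day 60 and 101 at day 200. Its level was 100 CPM at day 60, where the columns ran from 2.34 over a median of 108 to 184. At day 90 it was 514 CPM, with columns from 171 over 534 to 805, so that the 2 ranges met only at their ends. The day 200 chips had 403 CPM on a, with columns from 81.5 over 377 to 966, and 280 CPM on b, with columns from 61.3 over 247 to 672. That is 5.09-fold higher at day 90 than at day 60, and 3.99 and 2.78-fold higher on the day 200 chips. The antisense gene OTX2-AS1 overlaps it on the other strand, and since no strand setting of the counting is given, reads of the pair cannot be told apart.

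PRDM1 (chr6:105993463-106109939, plus strand) followed OTX2 in its order over the chips at a much lower level. It measured 6.38 CPM at day 60, with columns from 0 over 0.193 to 41.9, and 33.1 CPM at day 90, with columns from 0 over 25.6 to 106. On the day 200 chips it was 19.4 CPM on a, with columns from 0 over 0.902 to 128, and 15.6 CPM on b, with columns from 0 over 3.15 to 138. Columns overlapped between all chips, and on a and b 9 and 8 of 20 columns had no read. Day 90 thus had the highest level of both genes, and PRDM1 was 0.599 and 0.489 times its day 90 level on a and b. ATG5, on the opposite strand, and a second gene on its own strand overlap PRDM1.

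CRX (chr19:47819779-47843330, plus strand) was the scarcest regulator per kb at day 200, at 0.893 CPM per kb. As a sum over the chip its level was 4.74 CPM at day 60, with columns from 0 over 0.574 to 40.3, and 10.8 CPM at day 90, with columns from 0 over 4.40 to 55.6, where 1 of 20 columns had no read. It was 5.25 CPM on day 200 chip a, where 12 of 20 columns had no read and the highest had 73.4, and 5.46 CPM on chip b, with columns from 0 over 1.34 to 46.6. The reads came from 23, 56, 12 and 31 cells in this order of chips. The 5 cells with the most CRX reads held 81.3%, 51.6%, 98.0% and 82.8% of them. Without those 5 cells the level was 0.886, 5.21, 0.103 and 0.942 CPM, and day 90 was still the highest. The 2.05-fold difference from day 60 to day 90 was no longer 2-fold in cells with at least 150000 reads and at most 10% mitochondrial reads.

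NEUROD1 (chr2:181668295-181680827, minus strand) was abundant on every chip, and at day 60 it was the highest of the 8 by CPM but second to OTX2 per kb, with 23.3 CPM per kb. Its level was 191 CPM at day 60, with columns from 8.40 over 155 to 468, and 182 CPM at day 90, with columns from 70.2 over 163 to 296. The day 200 chips had 220 CPM on a, with columns from 33.4 over 232 to 427, and 167 CPM on b, with columns from 6.86 over 173 to 402. The columns of all chips overlapped. The largest ratio to day 60 was 1.15. NEUROD1 lies within CERKL on the same strand.

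RAX2 (chr19:3769089-3772228, minus strand) had no read in any of the 578 cells of day 60, which allows up to 0.0286 CPM. At day 90 RAX2 had 17.2 CPM, with columns from 1.17 over 15.2 to 46.3, at least 600-fold higher than the limit of 3 reads. All 20 columns of day 90 were above all 19 of day 60. It was 32.9 CPM on day 200 chip a, with columns from 0 over 2.55 to 180, and 14.2 CPM on chip b, with columns from 0 over 4.89 to 92.2, where 7 and 5 of 20 columns had no read. Chip a was 2.23-fold higher than chip b, which 5.70% of the genes with at least 10 CPM on either chip were, while 6.80% were 2-fold lower and none of the 8 was.

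NRL (chr14:24078662-24115010, minus strand) was 29.1-fold and 10.4-fold higher on day 200 chips a and b than at day 60. It was 7.00 CPM at day 60, with columns from 0 over 5.56 to 24.5, and 73.6 CPM at day 90, with columns from 4.56 over 69.1 to 198. On day 200 chip a it was 232 CPM, with columns from 0 over 233 to 508, and on chip b 82.5 CPM, with columns from 0 over 40.9 to 502. The day 60 and day 90 columns overlapped at their ends. Chips a and b were 2.79-fold apart, so that day 200 against day 90 was 3.12-fold higher on a and 1.12-fold on b. PCK2 and DCAF11 overlap NRL on the other strand.

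NR2E3 (chr15:71792638-71818259, plus strand) was the 1 regulator with a 2-fold step after day 90 on both chips. It was 1.66 CPM at day 60, with columns from 0 over 0 to 9.03, and 11.2 CPM at day 90, with columns from 0 over 6.17 to 52.5. It was 45.9 CPM on day 200 chip a, with columns from 0 over 26 to 153, and 36.2 CPM on chip b, with columns from 0 over 34.4 to 86.3. Against day 90 this was 3.83-fold on a and 3.04-fold on b. The day 200 columns overlapped those of day 90.

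SAMD7 (chr3:169911572-169939175, plus strand) had 37 reads in 32 cells at day 60, or 0.353 CPM, with columns from 0 over 0.341 to 1.16. At day 90 it was 31.9 CPM, with columns from 0 over 8.05 to 149. It was 55.9 CPM on day 200 chip a, with columns from 0 over 15.7 to 267, and 29.4 CPM on chip b, with columns from 0 over 25.9 to 104. The pseudogene FAM20BP1 lies within it. Between the day 200 chips it differed 1.87-fold.

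Cell classes came from clusters made without the 8 regulators among the variable genes, so that their levels in a class were not used to make it. Of the 1976 cells, 239 were cone-like, named by 10 of 10 markers such as ARR3 and PDE6H, and 59 were rod-like. The rod-like cluster rested on 7 of 11 rod markers, GNAT1, PDE6G, ROM1 and RP1 among its top 10 genes, but 7 of 10 cone markers passed in it too. A further 214 were precursor-like, led by VSX1, LHX4 and NEUROD4. That class rested on 5 of 8 precursor markers, and 4 of 10 RGC markers passed in it too. Of the other classes the largest, 545 cells, was Müller glia-like, and 312 cells led by the stress genes GDF15, TRIB3 and NDRG1 stayed unnamed. Among day 60 cells 0 of 578 were rod-like, where a limit of 3 cells is 0.519%. At day 90 and on chips a and b 26, 22 and 11 cells were.

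All 8 regulators had their highest class level in a cone-like, rod-like or precursor-like class. NRL was 1659 CPM in rod-like cells, 145 in precursor-like and 125 in cone-like cells. NR2E3 was 351 CPM in rod-like cells and 22.2 and 20.1 in precursor-like and cone-like cells. SAMD7 was 371 CPM in rod-like, 81.8 in cone-like and 5.52 in precursor-like cells. RAX2 was 90.9 CPM in rod-like and 69.5 in cone-like cells, and at most 18.4 elsewhere. The rod regulators and SAMD7 thus stood in the rod-like class well above the other photoreceptor classes, while RAX2 was near in both.

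OTX2 was 969 CPM in precursor-like, 836 in rod-like, 740 in cone-like and 531 in RPE-like cells, against 61.8 in ECM-like cells. The RPE-like class, pigment epithelium by TYRP1, PMEL and BEST1, was the only class outside these 3 above 250 CPM. PRDM1 was 74.6 CPM in precursor-like, 47.2 in cone-like and 41.4 in rod-like cells. NEUROD1 was 716 CPM in cone-like, 634 in rod-like and 272 in precursor-like cells, and at most 168 elsewhere. CRX was 31.2 CPM in cone-like, 11.8 in rod-like and 2.27 in precursor-like cells, and its 10.0 CPM in ECM-like cells came from 173 reads, 145 of them in 1 cell of day 90. With 10 dimensions in place of 20 the rod-like cells joined the cone-like class, where NRL was then 400 CPM and NR2E3 81.3.

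**Figure D2:**
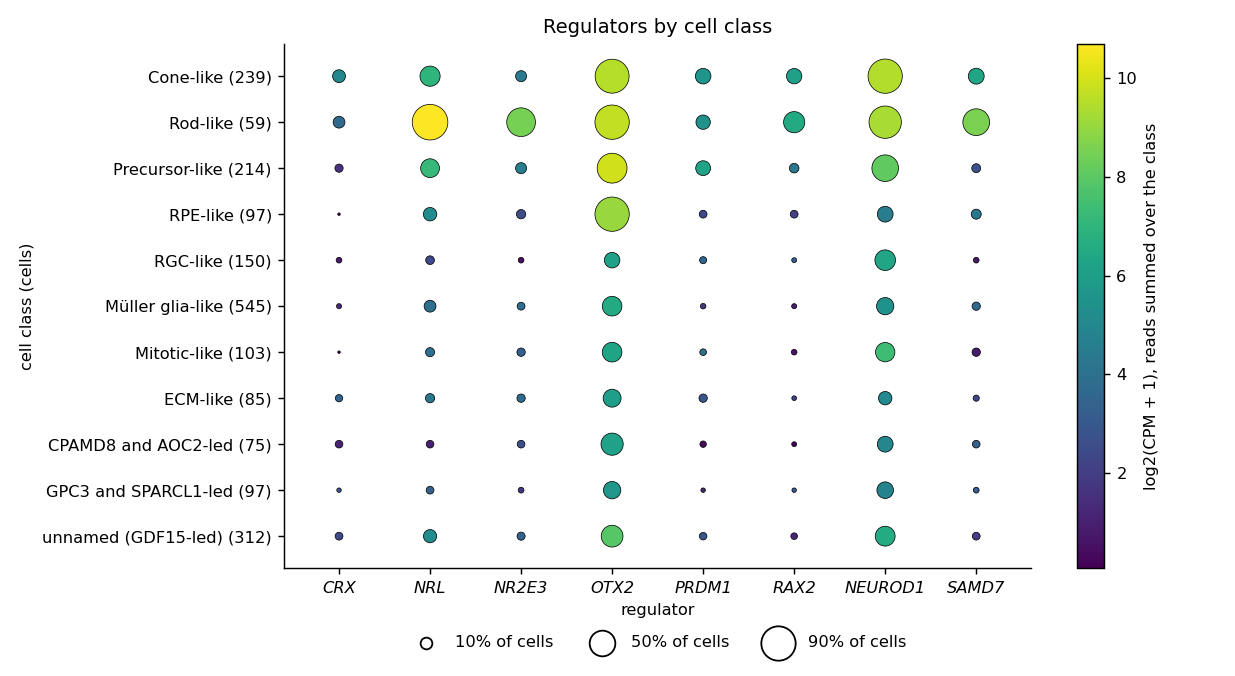
Regulators in 11 cell classes (rows, with the number of cells). Colour is log2(CPM + 1) of the reads summed over the class, and circle area grows with the percent of cells that have a read after thinning to 50000 reads. NRL, NR2E3 and SAMD7 peak in rod-like cells, OTX2 and PRDM1 in precursor-like cells, CRX and NEUROD1 in cone-like cells, and OTX2 is also high in RPE-like cells.

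Shares of cells with a read were compared after each cell was thinned to 50000 reads, which left out 6 cells of day 90. The ECM-like class, which should lack these genes, gives the background. The binomial intervals cover the sampling of cells only. Cells of a class are pooled over chips and days and are not separate cultures, so that overlap of intervals is a description and not a test. NRL had a read in 96.6% of rod-like cells (95% exact binomial interval 88.3 to 99.6), 30.7% of cone-like and 26.6% of precursor-like cells, against 6.02% of ECM-like cells. NR2E3 had one in 62.7% of rod-like cells, 8.82% of cone-like and 8.88% of precursor-like cells, against 4.82% (1.33 to 11.9), and of these 3 classes the interval lay above that of the ECM-like cells in the rod-like class alone (49.1 to 75.0). SAMD7 had one in 54.2%, 18.9% and 5.61%, against 2.41%, and RAX2 in 33.9%, 17.6% and 6.54%, against 1.20%. Before thinning the median cell had 208644 reads in the cone-like, 200013 in the rod-like and 199165 in the ECM-like class. Unthinned, NRL had a read in 100% of rod-like and 15.3% of ECM-like cells, and NR2E3 in 66.1% and 5.88%.

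OTX2 had a read in 89.8% of rod-like, 87.8% of cone-like, 67.8% of precursor-like and 89.7% of RPE-like cells, and in 24.1% of ECM-like cells. That background differed by chip, since unthinned 21 of 32 ECM-like cells of day 90 and 2 of 16 of day 60 had an OTX2 read, at 114 and 14.0 CPM. NEUROD1 had one in 79.7%, 89.5%, 53.7% and 18.6%, against 13.3% of ECM-like cells. PRDM1 had one in 15.3%, 18.1% and 16.4% of rod-like, cone-like and precursor-like cells, against 4.82% (1.33 to 11.9), with the cone-like interval (13.4 to 23.6) above it and the other 2 overlapping it. Of Müller glia-like cells 1.84% had a PRDM1 read (0.885 to 3.35), below the intervals of the rod-like, cone-like and precursor-like cells. CRX had one in 12.2% of cone-like cells (8.31 to 17.0) and 10.2% of rod-like cells, against 3.61% of ECM-like cells (0.752 to 10.2), and the intervals overlap. Of Müller glia-like cells 1.47% had a CRX read (0.637 to 2.88), below the interval of cone-like cells. Of the 97 RPE-like cells 4 had a CRX read before thinning, 4.12% (1.13 to 10.2), and 1 mitotic-like cell did, 0.971% (0.0246 to 5.29), while no such read was left in either class after thinning. Over whole chips the CRX share was 2.60%, 5.34%, 1.97% and 4.99% from day 60 to day 200 chip b, or 3.98%, 8.47%, 3.37% and 8.14% unthinned. Those thinned shares over whole chips lie within the interval of the ECM-like cells, which rests on 3 of 83 cells, and no difference between chips is read from them.

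Within cone-like cells RAX2 and SAMD7 were near 0 at day 60, while OTX2 and NEUROD1 were high on every chip. RAX2 was at 0 in all 49 cone-like cells of day 60, where a limit of 3 reads is 0.282 CPM and 3 cells are 6.12%. It was 52.6 CPM at day 90 and 106 and 133 CPM on day 200 chips a and b. SAMD7 was 0.188 CPM there at day 60, from 2 reads, and 86.4, 105 and 135 CPM on the later chips. NRL was 43.6, 92.1, 180 and 205 CPM in these cells, OTX2 652, 831, 723 and 659 CPM, and NEUROD1 1003, 521, 633 and 1043 CPM. OTX2 and NEUROD1 were thus high in cone-like cells from day 60 on, when 93.9% and 95.9% of the 49 had a read unthinned. CRX in them was 30.2, 27.1, 26.5 and 56.1 CPM, with no more than 16 cells with a read on a chip. PRDM1 was 25.8, 78.6, 32 and 27.7 CPM, highest at day 90.

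In precursor-like cells the level of OTX2 at day 60 was 141 CPM, and it was 1471 CPM in those of day 90 and 1025 and 1354 CPM in those of the day 200 chips. PRDM1 was 11.3, 126, 73.5 and 95.6 CPM there, and NRL was 4.99, 115, 374 and 74.9 CPM. The precursor-like cells of day 60 thus carried far less of all 3 than those of day 90. RGC markers passed in this class too, and its make-up by day was not tested. Rod-like cells had NRL at 859 CPM at day 90 and at 2096 and 1913 CPM on chips a and b. NR2E3 in them was 108, 417 and 608 CPM in that order, while RAX2 was 96.7, 75.1 and 124 CPM. These classes hold few cells, and the values of a class and chip rest on as few as 11 cells.

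Regulators were often read together in the same cells, but not in every pair. For every other regulator, cells with its read had an OTX2 read in a larger share than cells without it, at day 90 and at day 200. OTX2 is also the regulator read in the largest share of cells at day 90, 67.6%, so that shares with OTX2 are set beside those of the cells without the other gene. Of 76 cells with a CRX read after thinning, 62, or 81.6% (71 to 89.5), had an OTX2 read, whereas 43.7% of the cells without a CRX read did. Of 128 cells with a PRDM1 read 88.3% had an OTX2 read, against 42.2% of the cells without, and of 104 with a RAX2 read 87.5% did, against 42.8%. Within day 90 the shares were 85.7% against 66.6% for CRX (69.7 to 95.2), 94.9% against 63.9% for PRDM1 (87.5 to 98.6) and 91.9% against 65.1% for RAX2 (82.2 to 97.3). At day 200 they were 88.5% against 43.5%, 80.6% against 43.2% and 81.0% against 42.9%. The OTX2 shares at day 90 were 86.6% against 62.4% for NRL and 84.3% against 66.2% for NR2E3. They were 86.0% against 52.8% for NEUROD1 and 87.5% against 65.5% for SAMD7. NR2E3 was read in 23.9% of 322 cells with NRL (19.4 to 29) and in 3.64% of the cells without it. NRL was read in 56.2% of 137 cells with NR2E3 (47.5 to 64.7). Of the 77 cells with both, 35 were of day 90, 41 of day 200 and 1 of day 60, and 73 remained without the cells called doublets. NR2E3 cells had an NRL read in 68.6% of cases at day 90 (54.1 to 80.9), 67.6% on chip a (49.5 to 82.6) and 41.9% on chip b (27 to 57.9). CRX and NR2E3 showed no such excess after thinning. NR2E3 was read in 6.58% of the cells with CRX and 6.97% of those without, and at day 90 in 2.86% and 8.06%. At day 200 the shares were 15.4% and 10.3%, and over all cells without thinning 14.8% and 9.12%.

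**Figure D3:**
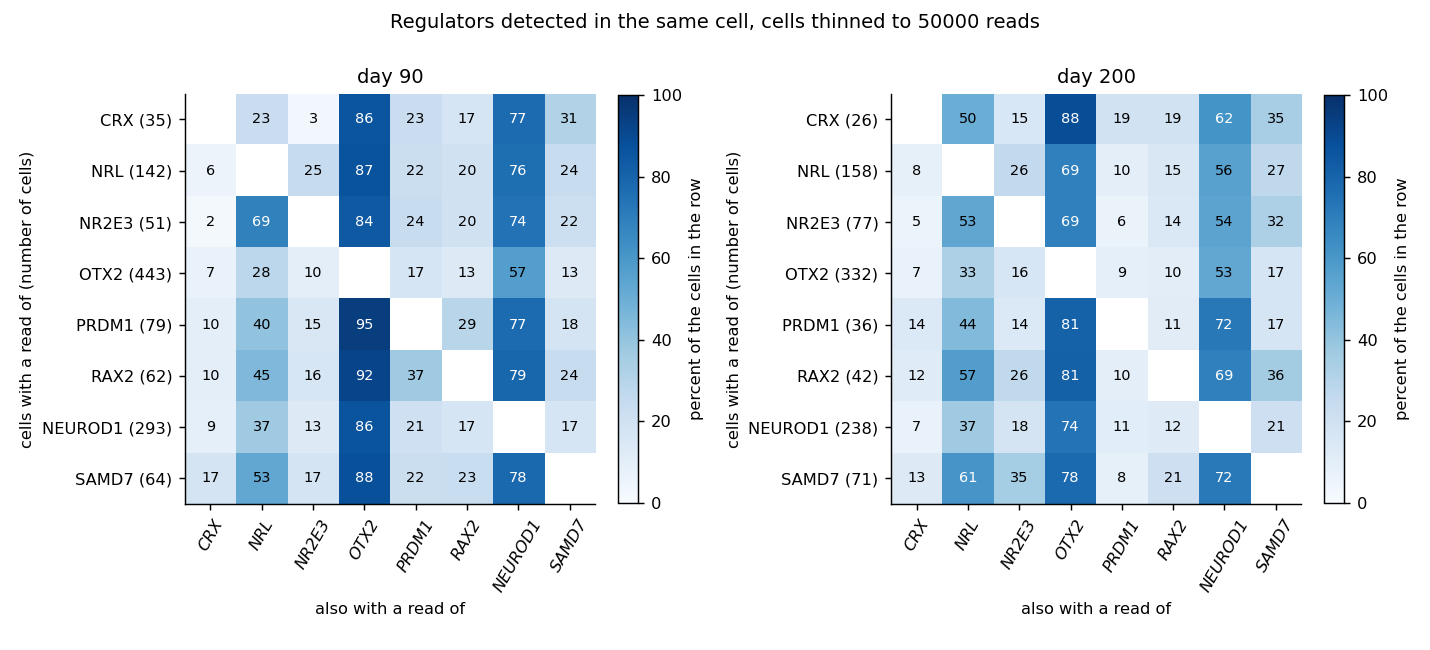
Percent of the cells with a read of the row regulator that also had a read of the column regulator, at day 90 and at day 200 (both chips), after thinning to 50000 reads, with cell numbers in brackets. In every row but its own the OTX2 column holds the highest value, from 84.3% to 94.9% at day 90 and from 68.8% to 88.5% at day 200, where OTX2 was read in 67.6% and 45% of all cells.

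PRDM1 and the bipolar gene VSX1, which was taken from the bipolar list after the values were seen, gave a further view of precursors. Of 128 cells with a PRDM1 read 32.8% (24.8 to 41.7) had a VSX1 read, against 10.2% (8.86 to 11.7) of the other 1842 cells. Within precursor-like cells VSX1 had a read in 65.7% of 35 cells with PRDM1 (47.8 to 80.9) and in 27.4% of 179 without it (21 to 34.5). VSX1 is among the markers that named this class and leads its top genes. The cells are pooled over chips and days, and both genes were lower at day 60 than at day 90. By chip PRDM1 was 6.38 and 33.1 CPM, and VSX1 15.2 and 116 CPM. Shares within a day were not computed, so no link within a day is read from these values.

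The number of regulators read in 1 cell differed between chips and classes. At least 4 of the 8 were read in 5 of 578 cells at day 60, all of them cone-like, and in 96 of 655 at day 90, 14.7%. They were read in 40 of 356 cells on chip a, 11.2%, and in 37 of 381 on chip b, 9.71%. Of the rod-like cells 84.7% had at least 4, of the cone-like 25.6%, of the precursor-like 14.0% and of the ECM-like 2.41%. At day 90, 33 of the 96 cells were cone-like, 22 rod-like, 18 precursor-like and 8 RPE-like.

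**Figure D4:**
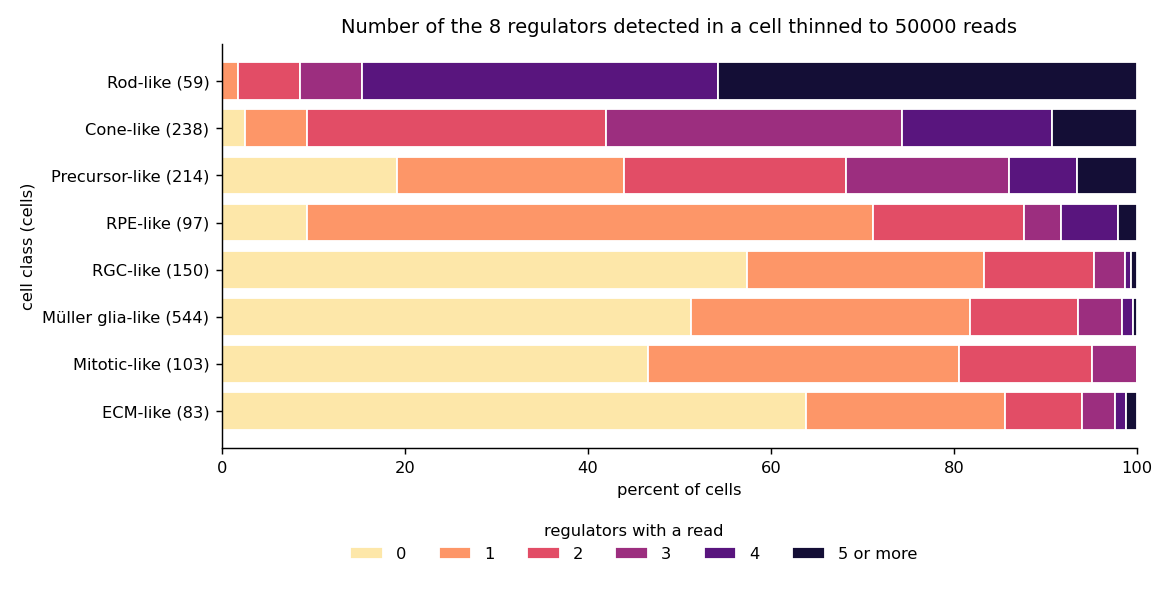
Share of cells of 8 classes (rows, with cell numbers) by how many of the 8 regulators had a read, in percent of cells thinned to 50000 reads. At least 4 were read in 84.7% of rod-like cells and in 2.41% of ECM-like cells.

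The genes most like each regulator were sought among 14102 genes over 1976 cells as the mean of the within-chip correlations of log2(CPM + 1). The cells share chip and depth, and the values are descriptions. By this mean NRL and NR2E3 ranked GNAT1, rod transducin, first, with r of 0.528 and 0.420, and then RP1, with 0.454 and 0.398. GNAT1 and RP1 had reads on the 3 later chips alone, and their means leave out day 60. PDC followed for NRL with 0.427, and NRL itself for NR2E3 with 0.337. SAMD7 ranked GNAT1, with 0.362, RP1, with 0.358, and AIPL1, with 0.328. The means of PDC, NRL and AIPL1 here include day 60, so these ranks rest on unequal sets of chips. At day 90 and on day 200 chips a and b NR2E3 had r of 0.424, 0.454 and 0.436 with NRL. With GNAT1 it had 0.353, 0.363 and 0.542. On the same chips SAMD7 had 0.374, 0.443 and 0.495 with AIPL1, and 0.354, 0.239 and 0.495 with GNAT1. NRL had 0.484, 0.426 and 0.508 with PDC, and 0.446, 0.456 and 0.458 with RP1. RAX2 was most like AIPL1, with 0.431, and the potassium channel gene KCNV2, with 0.409, then CPLX4, with 0.394. OTX2 was most like NEUROD1, with 0.495, PDC, with 0.471, and PCBP4, with 0.459. NEUROD1 was most like PDC, with 0.580, IMPG2, with 0.563, and FSTL5, with 0.533. The 3 genes for PRDM1 were C2orf71, OTX2 and AL451062.1, with 0.284 at most, and those for CRX were EGFLAM, AL451062.1 and PDC, with 0.201 at most, which are weak in such sparse counts.

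Lists of related genes that hold none of the 8 were counted at the same 2-fold, against the same shares of all genes. Of 19 other photoreceptor regulators 6 were at least 2-fold higher at day 90 than at day 60 and 3 on both day 200 chips, among them LHX4, with 8.34 CPM at day 60 and 61.9 at day 200, while ONECUT1, a regulator of horizontal cell fate, was 19.1 CPM at day 60 and 5.42 at day 200 and the only one 2-fold lower. RORB and NR2F1, the most abundant of that list per kb, were 247 and 538 CPM at day 60 and 340 and 342 CPM at day 200. Of 11 cone genes 11 and 9 were higher, ARR3, cone arrestin, from 6.05 CPM to 310 and PDE6H from 16.0 CPM to 489, and OPN1SW, the blue cone opsin, was 3.53 CPM at day 60, 8.87 CPM at day 90 and 0 on both day 200 chips. Of 12 rod genes 5 and 6 were higher, GNAT1 from 0 to 119 CPM, ROM1 from 3.26 to 88.0 CPM and PDE6G from 1.86 to 66.1 CPM, with 119 on chip a and 8.22 on b, while GNB1 was 164 and 154 CPM. GNAT2, SALL3 and HES5 were not analysed here.

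Of 14 genes of both photoreceptors 12 and 10 were higher, RCVRN from 53.5 to 663 CPM, PDC from 48.6 to 173 and RP1 from 0 to 123, and GUCY2D was below 1 CPM on every chip. Of 11 bipolar genes 6 and 5 were higher, CABP5 from 0 to 36.8 CPM, and ISL1 was lower, at 19.4 and 7.63 CPM. CABP5 was also among the top 10 genes of the rod-like cluster. Of 13 progenitor regulators none was higher on either count and 1 was lower at day 200, ATOH7, a factor of ganglion cell fate, from 27.2 to 0.576 CPM, while HES1 and SIX3 were 1530 and 320 CPM at day 60 and 1536 and 399 CPM at day 200. Of 7 RPE genes, which hold genes of RPE function beside regulators, 5 were higher at day 90 and 2 at day 200. The regulators SOX9 and TFEC were in neither count. From day 60 over day 90 to day 200 PMEL was 53.8, 482 and 82.6 CPM and TYRP1 5.41, 160 and 59.6 CPM. SOX9 was 84.6, 115 and 104 CPM. TFEC was 7.65 CPM at day 60 and 1.83 at day 200. PMEL and TYRP1 were highest at day 90, as OTX2 was, and 78 of the 97 RPE-like cells were of day 90. Their part in the OTX2 level of day 90 was not tested.

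A row named GFP-Spike stood beside the CRX reads at day 200. The line carries a CRX-GFP reporter, and the sources used here do not say which sequence the row counts. It had no read at day 60 or day 90, 165 CPM on day 200 chip a and 39.4 CPM on chip b. After thinning it had a read in 53 of 60 cone-like cells on a and 27 of 29 on b, in 16 of 22 and 9 of 11 rod-like cells, and in 24 of 46 and 18 of 45 precursor-like cells. Of ECM-like cells 0 of 6 and 2 of 31 had one. Other classes outside the photoreceptor-like ones held it too, above all on chip a. It was read in 17 of 113 and 4 of 122 Müller glia-like cells and in 17 of 65 and 8 of 49 unnamed cells. In RPE-like cells it was read in 3 of 9 and 1 of 6. CRX was read in 4 of the 60 and 7 of the 29 cone-like cells, far fewer than the GFP-Spike row.

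Cells with a GFP-Spike read carried more of the regulators. OTX2 was read in 72% of 132 such cells on chip a (63.5 to 79.4) and 35.7% of the other 224 (29.4 to 42.4), and on chip b in 82.1% of 78 and 30.7% of 303. NEUROD1 was read in 59.1% and 17.4% on a, and in 75.6% and 20.5% on b. CRX was read in 3.79% and 0.893% on a (1.24 to 8.62 and 0.108 to 3.19), and in 14.1% and 2.64% on b (7.26 to 23.8 and 1.15 to 5.14). The median depth of cells with and without the row was 251324.5 and 252676 reads on a, and 200774.5 and 216644 on b.

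**Figure D5:**
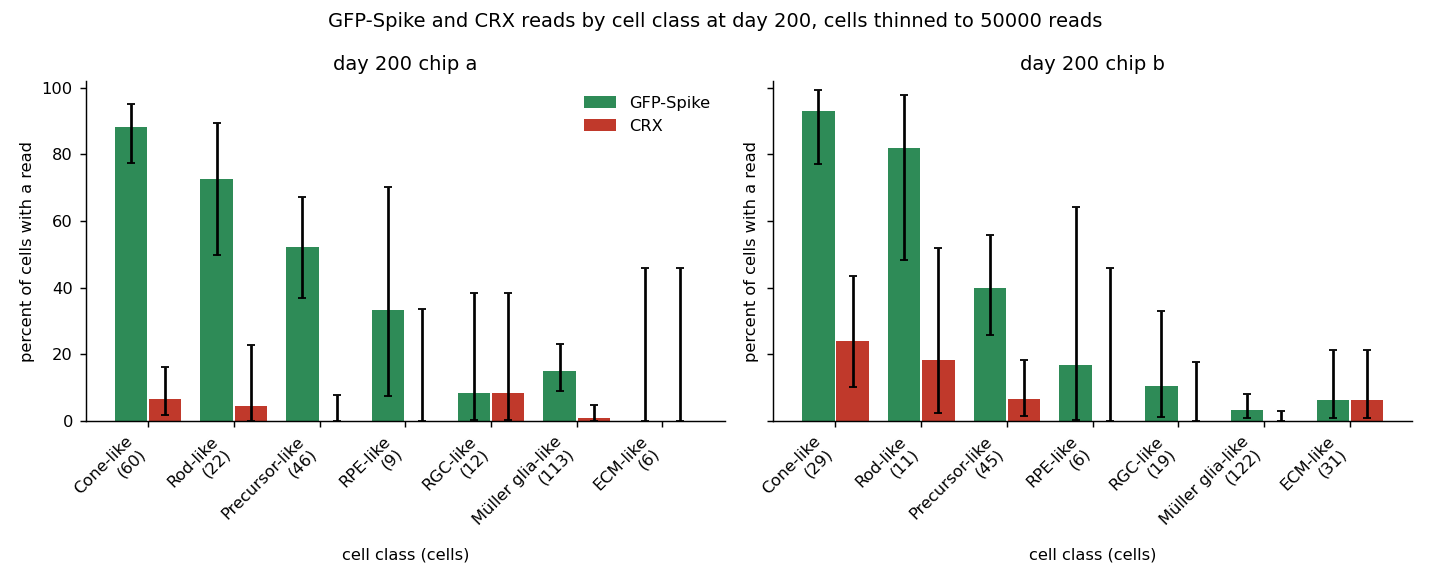
Percent of cells with a GFP-Spike read (green) and with a CRX read (red) in 7 classes of the day 200 chips, thinned to 50000 reads, with exact 95% binomial intervals and cell numbers in brackets. GFP-Spike was read in 53 of 60 and 27 of 29 cone-like cells, and CRX in 4 and 7 of them.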

How the data were processed

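Single cells of H9 organoids were sequenced full length (SMART-Seq v4) on Fluidigm C1 HT chips. The authors trimmed reads with Trimmomatic 0.33, aligned them with STAR 2.4.0 to GRCh38 joined with spike sequences and counted them per gene with HTSeq 0.6. They deposited read counts, without normalization or molecular identifiers, of 1976 cells after their own filters. Day 90 received more control RNA spikes, and the filters differed by day. The strand setting is not given in the sources used here.

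Cells were mapped to 79 columns and 4 chips by the deposited barcode table. CPM were computed without the GFP-Spike row. A gene was counted as different at a fold of 2 on log2(CPM + 1). The background is genes with at least 10 CPM on 1 of the chips compared. Clusters came from CCA integration in Seurat 5.3.0 with 20 dimensions and a resolution of 0.6, and were named from at least 3 markers. With scrublet (scanpy 1.11.5) 28 cells were marked as doublets, 24 of them on day 200 chip a, and were kept. For shares of cells each cell was thinned to 50000 reads. Exon lengths are the union over GENCODE 44 transcripts. Scripts were tested on simulated data.

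No test was made, since day 60 and day 90 have 1 chip each and columns are not stated to be separate cultures. The regulators, lists and markers were chosen with earlier results of these data known. The text names all 8 regulators, for each the 3 genes most like it, and of each list the 2 most abundant genes per kb and those highest and lowest in the difference from day 60 to day 200, and VSX1, chosen after its values were seen. Some genes that this rule names are not reported here. Alternatives were another scaling (TMM, edgeR 4.0.16), other pseudocounts, folds and cell filters, each day 200 chip left out, other thinning and other cluster settings.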

Additional observations from a re-analysis of the deposited data

Results flagged for a closer look

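The GFP-Spike row was at 0 CPM in every column of day 60 and day 90 and at 165 CPM on day 200 chip a and 39.4 CPM on chip b, which makes it a signal in a row outside the regulators that the earlier chips lack. In the columns it ran from 50.9 to 403 CPM on chip a and from 0 to 136 CPM on chip b. The genes most like it over the day 200 cells, chosen after the values were seen, were PDC, GNB3, IMPG2, NEUROD1 and PDE6H, with mean within-chip correlations from 0.543 to 0.596. Its correlation with CRX was 0.093 on chip a and 0.304 on chip b, over 356 and 381 cells.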

How the results depend on the processing

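The counts of regulators at least 2-fold higher at day 90 and at day 200 than at day 60 stayed within 1.5 times of 7 and 6 under every alternative run, from 5 to 7 and from 4 to 6. The 5 at day 90 with a pseudocount of 10 CPM left out CRX and NR2E3. The number 2-fold apart between the day 200 chips, 2, was 1 with a pseudocount of 10 CPM, 1 in cells with at least 150000 reads and at most 10% mitochondrial reads, 0 at a fold of 3 and 3 at a fold of 1.5. The number higher at day 200 than at day 90 ranged from 1 to 2 when a chip was left out, NRL being the second without chip b. Cells with NRL and NR2E3 together, 77, were 116 without thinning. Cells with CRX and OTX2 together, 62, were 96 without thinning and 22 with at least 5 reads of each, so that these numbers depend on the depth and the minimum. Of 200 single log2 ratios 32 moved by more than the SD of the 2 day 200 chips. None of the ratios of 2-fold or more changed sign, and 13 smaller ones did, of NEUROD1, CRX, RAX2 and SAMD7. On the log2 scale day 200 over day 60 of CRX, 0.15, was -0.19 in the stricter cells and -0.33 without the top 5 cells. Day 200 over day 90 of RAX2, 0.46, was -0.26 without chip a and -0.32 without the top 5 cells, and that of SAMD7, 0.43, was -0.11 without chip a. Of 24 ratios 20 were above 0, and 17 to 21 under the alternatives. Of 128 shares of cells 51 left their counting interval. Leaving out the 5 cells with the most reads, an alternative added after seeing the data, left all 4 counts as they were, with the same regulators in each. All 8 regulators had their peak in a cone-like, rod-like or precursor-like class under every cluster setting run. No paired analysis was possible because no result comes from a test.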
